A study of Mus musculus with 10 samples.

Results

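The serpin genes of the mouse, a family of protease inhibitors and related proteins, were followed in RNA-seq values of Sertoli cells and testes from a mouse study of *Rnf20*. A gene was taken as a member when its symbol began with Serpin followed by a letter and a number, and 58 of the 20142 genes listed in the tables met this rule. The day 7 table listed 45 of them among 17816 genes and the adult table listed 56 among 20007, with 43 in both. RNF20 is an E3 ubiquitin ligase that puts a single ubiquitin on histone H2B, and the study removed it in Sertoli cells, which nurse the germ cells inside the seminiferous tubules. The day 7 table held Sertoli cells from testes taken 7 days after birth, which the isolation protocol of the study plates in serum and passages before use, and 2 of its samples came from *Rnf20* Flox/Flox controls. The other 2 came from *Amh-Rnf20*-/- mice, in which a Cre recombinase driven by the *Amh* promoter removes the floxed gene. The labels call these groups wild type and knockout. The adult table held whole testis, with 3 samples labelled wild type and 3 labelled conditional knockout (cKO), an experiment that the methods of the study do not describe, and no treatment was given to any sample. The labels do not say whether replicates came from separate animals, and the methods of the study name more individuals per group at day 7 than the 2 samples analysed here, so the p-values measure only the spread between these samples.

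Serpins share a fold in which an exposed loop serves as bait for a protease, and the protease that cuts the loop is trapped and inactivated. Extracellular serpins restrain coagulation, fibrinolysis and complement, and those of clade B lie inside cells and guard against the cell's own or granule proteases. Several members have lost this activity and serve as chaperones, hormone carriers or growth factors. In the testis, plasminogen activators and their inhibitors are known to take part in the remodelling of the tubules when germ cells move and are released.

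The day 7 samples held between 17477268 and 17705347 estimated counts and the adult libraries between 15431912 and 16574144. Levels are given as FPKM, which corrects the fragment number for transcript length and sequencing depth, and differences as log2 fold changes of counts from edgeR's quasi-likelihood test with TMM scaling, each with its standard error (SE). A gene was called when its p-value adjusted over every gene tested in its table was under 0.05. *Rnf20* itself stood at 16.6 and 16.0 FPKM in the *Rnf20* Flox/Flox cells and at 10.3 and 12.6 in the *Amh-Rnf20*-/- cells (log2 fold change -0.49, adjusted p = 0.222 by edgeR). In adult testis it stood at 4.89, 3.32 and 4.09 FPKM in the libraries labelled wild type and at 9.16, 5.76 and 9.85 in those labelled cKO (log2 fold change 0.12, adjusted p = 0.688 by edgeR). The *Rnf20* level in whole testis RNA thus gave no check of those labels, and the adult libraries are named by their labels here. Spermatid markers, given below, were far lower in the libraries labelled cKO. This is the direction of the labels, since the study reports that *Amh-Rnf20*-/- tubules lacked round and elongated spermatids. At day 7 the markers of peritubular myoid cells summed to 2515 and 2376 FPKM in the controls against 4115 and 4291 in the *Amh-Rnf20*-/- cells, and those of stromal fibroblasts to 2152 and 2236 against 3920.1 and 3306. The fold change was above 0 for 7 of 7 and 6 of 6 of these markers, but for only 3 of 15 Sertoli cell markers, whose sums were 1619 and 1497 against 926 and 1253. Leydig cell markers summed to 149 and 156 against 301 and 205 FPKM, with 4 of 4 tested above 0, and macrophage markers to 28.0 and 33.0 against 55.1 and 31.7. Spermatogonium markers summed to 211 and 204 against 146 and 142, with 0 of 10 above 0, and 0 of 6 spermatocyte markers were above 0. Markers of spermatids reached 1.95 FPKM in sum, those of hepatocytes 0.16 and those of the epididymis 0.1 in any day 7 sample. These values moved with the day 7 results below, and their part in them was not tested.

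In the day 7 Sertoli cells *Serpinh1* was the most abundant serpin transcript, and most members tested had higher levels in the *Amh-Rnf20*-/- samples without passing the test. Added up over the members, FPKM came to 2364 and 2428 in the controls, against 3021 and 2800.1 in the *Amh-Rnf20*-/- cells. *Serpinh1* alone made up between 34.1% and 37.6% of this sum. Of the 45 members listed, 21 reached 0.5 FPKM in at least 2 samples and were tested, and each of these had a sample at that level in both groups. The log2 fold change was above 0 for 19 of the 21, with a median of 0.67, where 49.2% of the 12880 genes tested were above 0 with a median of -0.00. None was called by edgeR, which called 0% of the 12880 genes. At an unadjusted p under 0.05, edgeR found 11 of the 21, all of them higher, beside 15.5% of the genes tested. DESeq2 called 4, again all higher, beside 3.01% of the genes tested called higher by it. On TMM-scaled counts the groups did not overlap for 14 members that were higher and for 1 that was lower, beside 24.8% and 26.1% of the genes tested. Without *Amh-Rnf20*-/- replicate 1 edgeR called 9 members beside 21.4% of the genes tested, and without *Amh-Rnf20*-/- replicate 2 it called 18 beside 39.9%, with the sample left in the group assumed to vary like the controls.

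**Figure D1:**
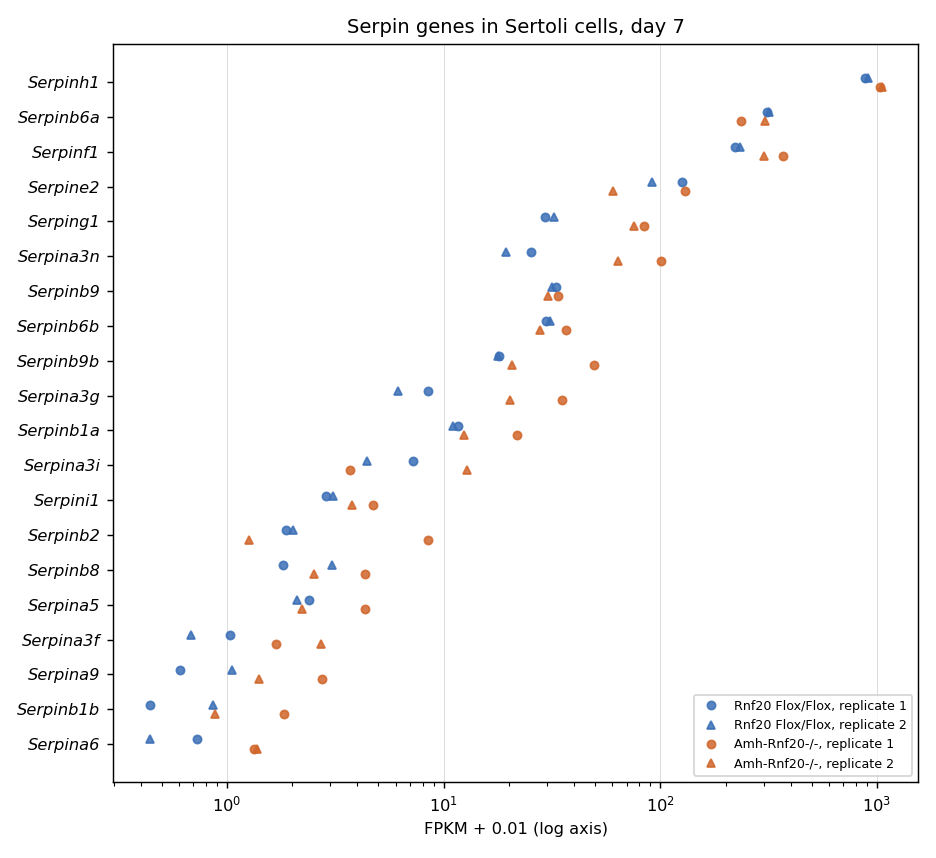
FPKM of 20 serpin genes tested at day 7, plus 0.01, on a log axis. Each point is 1 sample, blue for Rnf20 Flox/Flox and orange for Amh-Rnf20-/-, and the orange points of Serping1, Serpina3n and Serpina3g lie to the right of the blue ones while those of Serpinb9 and Serpine2 lie on either side of them.

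Among the inhibitors of plasminogen activation, *Serpine2*, an inhibitor of thrombin and urokinase, varied as widely within groups as between them, at 125 and 91.1 FPKM in the controls against 130 and 60.3 in the *Amh-Rnf20*-/- cells (log2 fold change -0.14 ± 0.41 SE). The plasminogen activators themselves, *Plat* and *Plau*, stood at 22.1 and 19.6 against 62.6 and 19.1 FPKM and at 29.5 and 24.3 against 36.5 and 31.0. *Plat* followed the pattern of *Serpinb2*, which encodes the inhibitor PAI-2 and was at 1.86 and 2.01 FPKM against 8.50 and 1.26, in that only replicate 1 of the *Amh-Rnf20*-/- samples was high. *Serpina5*, the protein C inhibitor, which is known to be needed for male fertility in mice, was at 2.38 and 2.09 against 4.33 and 2.22 FPKM, and the groups overlapped on TMM-scaled counts. *Serpini1*, or neuroserpin, was at 2.85 and 3.07 against 4.73 and 3.75 FPKM (log2 fold change 0.56 ± 0.18 SE, adjusted p = 0.284 by edgeR). *Serpinf2*, the inhibitor of plasmin itself, was listed at 0.15 FPKM or less in every sample and was not tested.

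Of the inhibitors of coagulation and complement, only *Serping1* was expressed at a level that could be tested. It encodes the C1 inhibitor, which blocks the proteases C1r and C1s at the start of the classical complement pathway. It stood at 29.5 and 32.3 FPKM in the controls, against 84.0 and 75.5 in the *Amh-Rnf20*-/- cells. Both *Amh-Rnf20*-/- samples were well above both controls, and the fold change of 2.66 (log2 fold change 1.41 ± 0.10 SE) had the smallest unadjusted p of the members, 7.1e-05, with an adjusted p of 0.119 by edgeR. DESeq2 called it, with an adjusted p of 3.79e-16, and over the other alternatives with 4 samples the adjusted p reached 0.27. Its target proteases were lower, *C1s1* at 108 and 94.9 FPKM against 44.1 and 82.5 and *C1ra* at 46.5 and 45.5 against 34.4 and 42.8, with neither called. Of 7 classical complement genes tested, the fold change was above 0 for 4 and none was called by edgeR. The 4 included *C4b*, at 0.33 and 0.29 against 1.95 and 1.73 FPKM, and *C2*, at 10.2 and 12.1 against 21.5 and 16.0, which DESeq2 called with adjusted p of 2.8e-08 and 0.0247, but *C4b* and *C1qa* were tested only because of their level in the *Amh-Rnf20*-/- cells. *Serpinc1*, or antithrombin, was at 0.21 and 0.17 FPKM against 0.06 and 0.04, too low to be tested.

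The members without protease inhibition included the most abundant serpin of these cells. *Serpinh1* encodes HSP47, the chaperone that binds procollagen in the endoplasmic reticulum, and was at 880.3 and 910.5 FPKM in the *Rnf20* Flox/Flox cells and at 1029 and 1053 in the *Amh-Rnf20*-/- cells. The groups did not overlap, at a log2 fold change of 0.26 ± 0.07 SE (adjusted p = 0.242 by edgeR). The genes of its client proteins and partners mostly lay on the same side. The fold change was above 0 for 15 of 17 genes of procollagen folding and hydroxylation. It was also above 0 for 5 of 6 genes of type I, III and V procollagens, with none of either list called by edgeR. *Col1a1* went from 1011 and 1046 to 1718 and 1464 FPKM. DESeq2 called these 5 procollagen genes higher (adjusted p of 0.000157 or less), beside 3.01% of the genes tested. It called the other, *Col5a3*, lower (log2 fold change -0.78, adjusted p = 4.46e-07). Of the folding genes, DESeq2 called *Crtap*, *P3h3* and *P4ha3* higher (adjusted p of 0.00555, 0.0376 and 0.0448). Of the 6 procollagen genes, *Col1a1*, *Col1a2* and *Col3a1* are also among the 6 fibroblast markers, so these lists are not separate observations in either table. *Serpinf1*, which encodes the anti-angiogenic factor PEDF, was at 221 and 234 against 369 and 300 FPKM (log2 fold change 0.60 ± 0.13 SE, adjusted p = 0.187 by edgeR and 0.00774 by DESeq2). *Serpina6*, the gene of corticosteroid-binding globulin, was low, at 0.72 and 0.43 against 1.32 and 1.36 FPKM. *Serpinb5*, or maspin, did not exceed 0.15 FPKM.

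The largest day 7 differences among the members tested fell in the *Serpina3* genes, the counterparts of human antichymotrypsin, of which the mouse has a run of neighbouring copies between *Serpina3a* and *Serpina3n* on chromosome 12 (GRCm38.p6). *Serpina3n*, whose product is known to inhibit granzyme B, was at 25.3 and 19.3 FPKM in the *Rnf20* Flox/Flox cells and at 101 and 64.1 in the *Amh-Rnf20*-/- cells, a fold change of 3.80 (log2 fold change 1.93 ± 0.28 SE, adjusted p = 0.132 by edgeR and 6.49e-10 by DESeq2). *Serpina3g*, which encodes an intracellular serpin that inhibits cathepsin B, was at 8.44 and 6.12 FPKM against 35.2 and 20.3, a fold change of 4.07 (log2 fold change 2.02 ± 0.31 SE, adjusted p = 0.141 by edgeR and 1.53e-07 by DESeq2). Their neighbour *Serpina3i* behaved otherwise, at 7.18 and 4.43 FPKM against 3.68 and 12.75, with the *Amh-Rnf20*-/- samples on either side of the controls. *Serpina1b*, a gene of α1-antitrypsin, was at most at 0.15 FPKM.

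The promoters of these neighbours are shown because *Serpina3n* and *Serpina3g* had the largest day 7 fold changes among the members tested. RefSeq promoters (GRCm38.p6) were matched for 50 of the 58 members, 8 of them *Serpina3* genes, and the 150 bases before the start were searched on both strands. The letters AGAAATCA, chosen from these promoters, served to place the same stretch of 30 bases in the 5 of the 8 *Serpina3* promoters that hold them on the strand of the gene, so that their number is not a result. Capitals mark the letters TTCNNNGAA, the core that STAT transcription factors recognise.
Serpina3c, chr12:104153970-104153999, minus strand: atccatattaccagaaatcatccagtctgt
Serpina3f, chr12:104214416-104214445, plus strand: gttctatTTCCTAGAAatcacccatttccc
Serpina3g, chr12:104236107-104236136, plus strand: gttatagTTCCCAGAAatcacccggtctgt
Serpina3i, chr12:104263013-104263042, plus strand: gtgcttgTTCCCAGAAatcacccagtctgt
Serpina3n, chr12:104406578-104406607, plus strand: atccatgttaccagaaatcatccagtctgt

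The 5 stretches lie outside the RefSeq gene bodies, with their first base between 40 and 130 bases before the start sites used. The motif was present in *Serpina3f*, *Serpina3g* and *Serpina3i*, and in 6 of the 50 serpin promoters, against 4.09% of 32851 promoters. The full windows of *Serpina3f* and *Serpina3g*, whose start sites are also the ends of their RefSeq genes, show where the stretch sits, with the same letters in capitals.
Serpina3f, chr12:104214394-104214543, plus strand: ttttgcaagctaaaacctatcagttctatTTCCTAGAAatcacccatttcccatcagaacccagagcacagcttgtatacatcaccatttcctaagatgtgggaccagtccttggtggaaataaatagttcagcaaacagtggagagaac
Serpina3g, chr12:104235997-104236146, plus strand: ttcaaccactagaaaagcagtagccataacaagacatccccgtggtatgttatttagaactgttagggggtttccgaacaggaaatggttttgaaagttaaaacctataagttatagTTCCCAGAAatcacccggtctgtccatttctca

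A match is a description of these letters and not a site in use. *Serpina3n*, which holds no such letters in this window, and *Serpina3g*, which does, were the members with the largest day 7 fold changes. *Serpina3f*, which also holds the letters, was at 1.02 and 0.67 against 1.68 and 2.7 FPKM at day 7 (log2 fold change 1.40 ± 0.37 SE, adjusted p = 0.232 by edgeR), and *Serpina3i* held the same 9 letters as *Serpina3g* with a log2 fold change of 0.45 ± 0.80 SE. Of the other motifs searched, TATAAA was found in 9 of the 50 serpin promoters (7.57% of all promoters), CCAAT in 11 (24.5%) and the heat shock core GAANNTTC in 0 (3.95%). Serpin neighbours can share reads, which was not tested. Of the 50-base words in the longest transcript of *Serpina3n*, 6.9% occurred in another gene, and for *Serpina3g* it was 16.0%.

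In clade B the most abundant member was *Serpinb6a*, an intracellular inhibitor of cathepsin G. It was also the only tested member whose *Amh-Rnf20*-/- samples both lay below the controls, at 310.1 and 319 FPKM against 237 and 305 (log2 fold change -0.18 ± 0.13 SE, adjusted p = 0.577 by edgeR). *Serpinb9*, which protects cells from granzyme B, was at 33.0 and 31.5 against 33.9 and 30.4 FPKM, and *Serpinb6b* was at 29.5 and 31.0 against 36.6 and 27.9. In both genes the control samples lay between the *Amh-Rnf20*-/- samples. *Serpinb9b* was at 18.1 and 17.8 against 49.7 and 20.7 FPKM, and *Serpinb1a*, an inhibitor of neutrophil elastase, at 11.7 and 11.0 against 21.8 and 12.4. For both of these, *Amh-Rnf20*-/- replicate 2 was only just above the controls and replicate 1 was far above them. The other tested members, *Serpina3f*, *Serpina9*, *Serpinb1b* and *Serpinb8*, lay between 0.43 and 4.34 FPKM in every sample. The 24 members not tested reached 2.81 FPKM at most, in a single *Amh-Rnf20*-/- sample of *Serpina11*, and 16 of them had fewer than 10 counts over the 4 samples together.

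In adult testis 18 of the 28 serpin genes that could be tested were higher in the libraries labelled cKO than in those labelled wild type, and *Serpina3n* had the largest log2 fold change among these 18. The members' FPKM summed to 324, 304 and 313 in the libraries labelled wild type and to 4994, 2918 and 2324 in those labelled cKO, or 0.0427% to 0.0457% against 0.367% to 0.794% of all counts. Of the 56 members listed, 28 reached 0.5 FPKM in at least 3 samples and were tested. edgeR called 18 of them higher and 5 lower, beside 40.9% and 40.6% of the 15919 genes tested, and 5 were not called. The median log2 fold change of the 28 was 2.83 against 0.01 over all genes tested. Some of these had to differ in FPKM, though not to be called, since 6 members had a sample at 0.5 FPKM only in the libraries labelled cKO. Of these 6, 5 were called higher. Another 4 had such a sample only in those labelled wild type, and 4 were called lower. Of the 18 that had such a sample in both groups, 13 were called higher and 1 lower. With the study's own thresholds, a log2 fold change beyond 1 and an adjusted p under 0.001, edgeR called 14 higher and 1 lower beside 23% and 23.7% of the genes tested.

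The 2 groups of adult libraries differed in composition. Spermatid markers summed to between 123490 and 192032 FPKM in the libraries labelled wild type and to 4.23, 88.1 and 47.7 in those labelled cKO, with 10 of 10 called lower, and the sum of spermatocyte markers went from between 6454 and 6700.0 to 1.95, 394 and 565. Markers of Leydig cells (6 of 6 called higher), macrophages (8 of 8) and stromal fibroblasts (6 of 6) were higher, the fibroblast sum being 53.4, 40.5 and 48.5 FPKM against 3390.4, 1327 and 1303 and the macrophage sum 69.6, 80.3 and 71.5 against 2842, 2317 and 1781. Those of Sertoli cells summed to 659, 549 and 533 against 2225, 5003 and 5618 FPKM, with 7 of 14 tested called higher and 1 lower. Most of the Sertoli cell sum was *Clu*, at 564, 470 and 450 FPKM against 1857, 4411 and 4953. All these marker counts stand beside 40.9% of all genes tested called higher and 40.6% called lower. Of the macrophage markers, *Cd163* reached the level for testing only in the libraries labelled cKO. The part of these shifts in the serpin values was not tested, and in bulk testis fewer cells of a type and less RNA per cell cannot be told apart. Replicate 1 labelled cKO stood apart with the lowest germ cell and Sertoli cell sums and the highest fibroblast sum, and without it 19 serpin genes were called higher and 5 lower, beside 45.3% and 41.1% of the genes tested. The direction of small changes also depended on scaling: total-count scaling moved the median over all genes tested to a log2 fold change of 0.87 and called 21 serpin genes higher and 5 lower beside 54.1% and 30% of the genes tested, with a serpin median of 3.67. FPKM values carry the same shift.

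**Figure D2:**
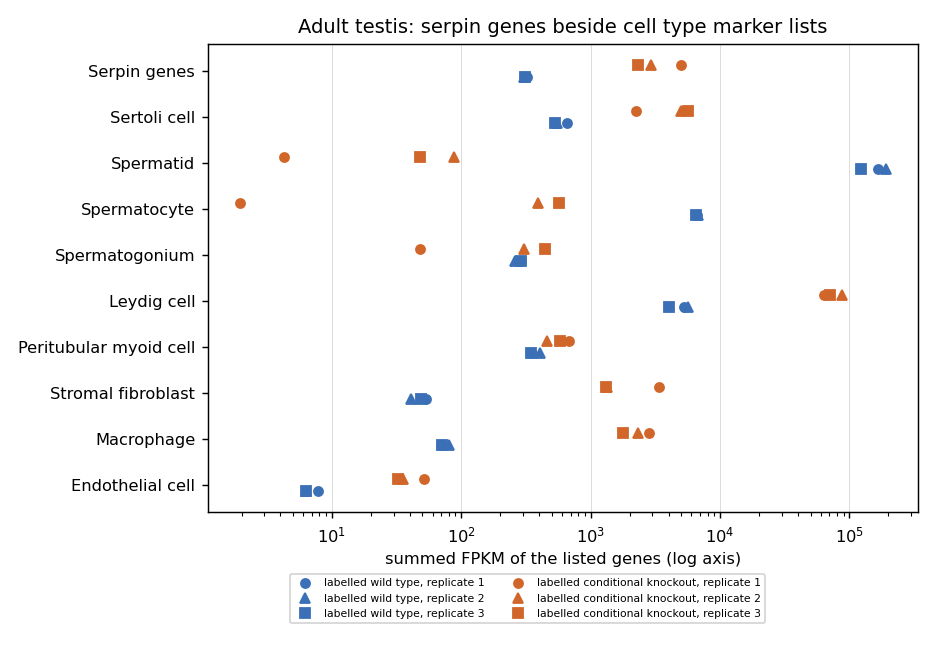
Summed FPKM of the 56 serpin genes and of 9 lists of cell type markers in the 6 adult testis libraries, on a log axis. Each point is 1 library, blue for those labelled wild type and orange for those labelled conditional knockout. The serpin sum lies to the right in orange, as do the Leydig, fibroblast, macrophage, Sertoli, endothelial and peritubular myoid sums. The spermatid sum lies far to the left.

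**Figure D3:**
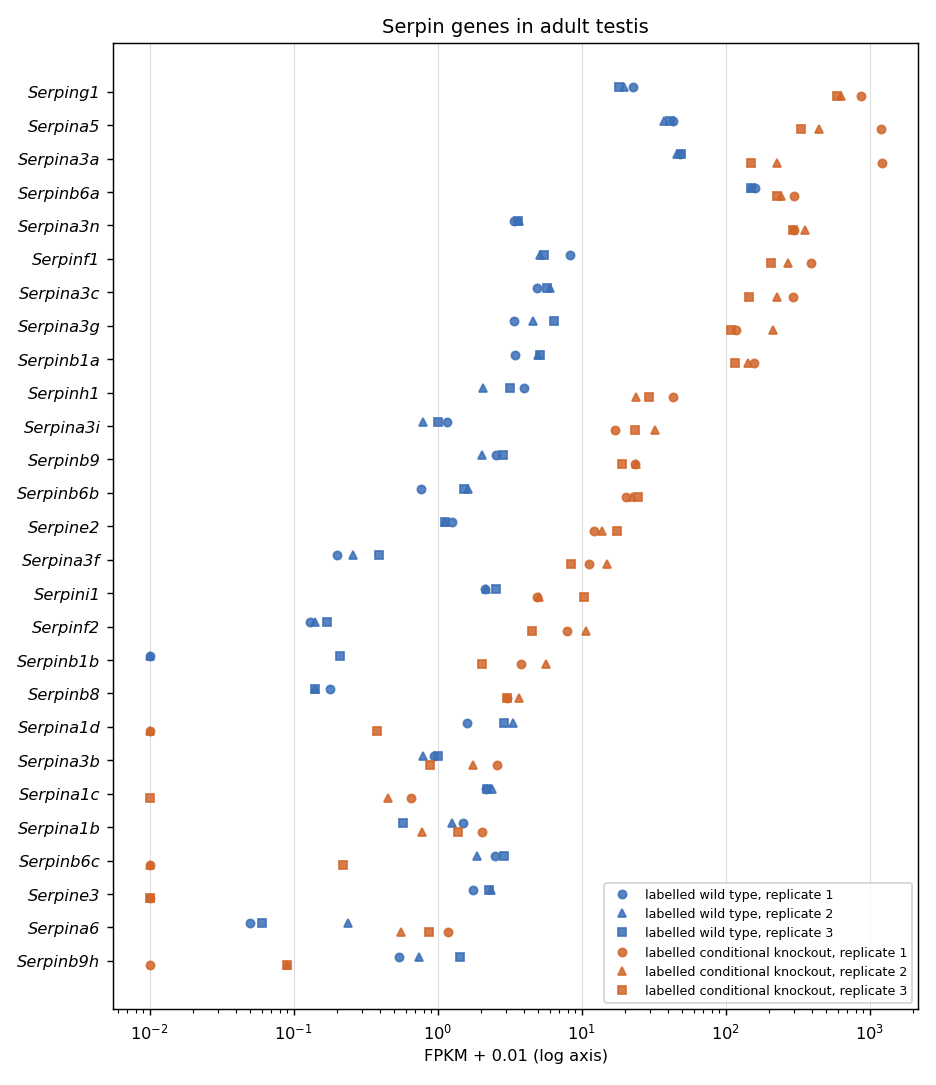
FPKM of 27 serpin genes tested in adult testis, plus 0.01, on a log axis. Each point is 1 library, blue for those labelled wild type and orange for those labelled conditional knockout, and for Serpinb6a the groups lie close together while Serpine3 is at 0 FPKM in the 3 orange libraries.

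Among the inhibitors of plasminogen activation, *Serpina5*, *Serpinf2* and *Serpine2* rose in the libraries labelled cKO. *Serpina5* was the most abundant of them, at 42.8, 37.1 and 41.0 FPKM in the libraries labelled wild type and at 1196, 444 and 332 in those labelled cKO (log2 fold change 3.21 ± 0.57 SE, adjusted p = 0.0023 by edgeR). The 3 controls lay within a narrow range, and replicate 1 labelled cKO was far above the other two, without which the log2 fold change was 2.52. *Serpinf2* rose from 0.12, 0.13 and 0.16 FPKM to 7.87, 10.7 and 4.48, a fold change of 30.6 (log2 fold change 4.94 ± 0.47 SE, adjusted p = 0.000163 by edgeR). But it was tested only because of its level in the libraries labelled cKO, so its FPKM had to differ. *Serpine2* rose from 1.24, 1.12 and 1.11 FPKM to 12.2, 13.9 and 17.5, a fold change of 6.85 (log2 fold change 2.78 ± 0.18 SE, adjusted p = 5.0e-05 by edgeR). In contrast to *Serpina5*, replicate 1 labelled cKO was here the lowest of its group. *Serpini1* was at 2.13, 2.14 and 2.53 against 4.92, 5.08 and 10.3 FPKM (log2 fold change 0.70 ± 0.30 SE, adjusted p = 0.0696 by edgeR, and 0.00478 under total-count scaling). *Serpinb2* stayed at 0.57 FPKM or less. Of the other genes of plasminogen activation, 9 of 10 tested rose and 1 fell, beside 40.9% and 40.6% of all genes tested. Of these, *Plau*, *Plaur* and *Hgf* reached the level for testing only in the libraries labelled cKO. *Klkb1*, the one that fell, reached it only in those labelled wild type. The FPKM of these genes had to go that way, and the other 6 rose. *Plau* went from 0.37, 0.15 and 0.41 FPKM to 10.95, 5.7 and 8.5, and *Plat* from 4.54, 3.46 and 2.54 to 9.23, 82.2 and 111, lowest in replicate 1 labelled cKO as *Serpine2* was.

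*Serping1*, the C1 inhibitor, was the most abundant serpin in 2 of the 3 libraries labelled cKO. It rose from 22.6, 19.5 and 18.25 FPKM to 872, 632 and 596, a fold change of 19.4 (log2 fold change 4.28 ± 0.28 SE, adjusted p = 5.0e-05 by edgeR). All 3 libraries labelled cKO were far above the controls, and leaving out any replicate kept the log2 fold change between 4.18 and 4.48. Classical complement genes rose as well, 10 of 11 tested (beside 40.9% of all genes tested) and none lower, though *Masp2* was tested only because of its level in the libraries labelled cKO. The targets of the inhibitor were among them: *C1ra* went from 3.09, 3.89 and 3.98 FPKM to 177, 137 and 117, and *C1s1* from 2.95, 3.01 and 2.91 to 156, 86.7 and 88.0. *C1qa* and *C1qb* of this list also stand among the macrophage markers. The other inhibitors of coagulation, *Serpinc1*, *Serpind1* and *Serpina10*, did not exceed 0.32 FPKM in any library. Of 14 genes of coagulation and thrombin receptors tested, 8 rose and 3 fell, beside 40.9% and 40.6% of all genes tested, but 7 of the 14 reached the level for testing in 1 group only, and of the 7 that reached it in both groups 5 rose and 1 fell.

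All 3 tested members without protease inhibition rose, of which *Serpina6* was tested only because of its level in the libraries labelled cKO. *Serpinf1* rose from 8.24, 5.13 and 5.45 FPKM to 389, 272 and 206, a fold change of 25.8 (log2 fold change 4.69 ± 0.37 SE, adjusted p = 8.7e-05 by edgeR). *Serpinh1* rose from 3.95, 2.06 and 3.15 FPKM to 42.9, 23.6 and 29.3, a fold change of 5.75 (log2 fold change 2.52 ± 0.33 SE, adjusted p = 0.000617 by edgeR). For both genes, replicate 1 labelled cKO was the highest, as it was for the fibroblast markers. Around *Serpinh1*, 15 of 16 tested genes of procollagen folding and hydroxylation and 5 of 6 procollagen genes rose, beside 40.9% of all genes tested, and none fell, with *Col1a1* going from 0.84, 0.52 and 0.63 FPKM to 36.2, 17.97 and 28.2. Among these, *P3h2*, *P3h3*, *Col5a2* and *Col5a3* were tested only because of their level in the libraries labelled cKO and had to rise in FPKM. *Serpina6* was low and less certain, at 0.04 to 0.23 FPKM against 0.55 to 1.16 (log2 fold change 2.12 ± 0.69 SE, adjusted p = 0.0278 by edgeR), and without replicate 1 or replicate 3 labelled wild type its adjusted p was 0.0923. Without replicate 2 labelled wild type its log2 fold change was 3.32.

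The antichymotrypsin genes carried the largest rise among the abundant serpins. *Serpina3n* rose from 3.37, 3.67 and 3.59 FPKM to 298, 356 and 294, a fold change of 49.2 (log2 fold change 5.62 ± 0.20 SE, adjusted p = 2.7e-05 by edgeR). Its 3 libraries labelled cKO lay close together, unlike those of *Serpina5* and *Serpina3a*. *Serpina3c* rose from 4.92, 6.05 and 5.69 to 295, 227 and 144 FPKM (log2 fold change 4.48 ± 0.36 SE), and *Serpina3g* from 3.38, 4.57 and 6.41 to 118, 214 and 109.7 (log2 fold change 4.06 ± 0.41 SE). *Serpina3i* rose from 1.15, 0.78 and 1 to 17.1, 32.0 and 23.4 FPKM (log2 fold change 3.54 ± 0.26 SE), and *Serpina3f* from 0.19, 0.25 and 0.38 to 11.2, 14.9 and 8.45 (log2 fold change 4.499 ± 0.37 SE). The adjusted p of these 4 genes was at most 0.000202 by edgeR, and *Serpina3f* reached the level for testing only in the libraries labelled cKO. The 3 genes with the STAT letters shown above, *Serpina3f*, *Serpina3g* and *Serpina3i*, were each highest in replicate 2 labelled cKO, and so was *Serpina3n*, which lacks them, whereas *Serpina3c* was highest in replicate 1. *Serpina3a* was already at 48.3, 46.1 and 48.8 FPKM in the libraries labelled wild type and at 1214, 226 and 151 in those labelled cKO (log2 fold change 2.89 ± 0.89 SE, adjusted p = 0.0225 by edgeR). It rested on replicate 1 for its size, since the log2 fold change was 1.39 without that library, and without replicate 1, 2 or 3 labelled wild type its adjusted p was 0.0717, 0.0734 and 0.0724. *Serpina3b*, between *Serpina3a* and *Serpina3c* on the chromosome, was not called, with values from 0.78 to 2.57 FPKM in the 6 libraries.

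Of the α1-antitrypsin genes, which encode the inhibitor of neutrophil elastase in blood and lie in the same cluster as the antichymotrypsin genes, 2 of 3 tested fell, beside 40.6% of all genes tested. *Serpina1d* reached the level for testing only in the libraries labelled wild type and had to fall in FPKM. *Serpina1c* fell from 2.17, 2.39 and 2.20 FPKM to 0.64, 0.44 and 0 (log2 fold change -3.46 ± 0.85 SE, adjusted p = 0.00893 by edgeR), and *Serpina1d* from 1.59, 3.34 and 2.89 to 0, 0 and 0.37 (log2 fold change -5.17 ± 1.07 SE, adjusted p = 0.0044 by edgeR). Without replicate 1 or replicate 3 labelled cKO the log2 fold change of *Serpina1c* was -4.08 and -2.81. That of *Serpina1d* was -4.51 without replicate 1 and, with only libraries at 0 left in that group, -9.18 without replicate 3. *Serpina1b* was at 1.5, 1.24 and 0.56 FPKM against 2.01, 0.77 and 1.38, with overlapping groups. *Serpina1a* did not exceed 0.10 FPKM. These copies are hard to separate by reads, since between 35.8% and 74.2% of the 50-base words in their longest transcripts occurred in another gene, and the split of counts among them is uncertain. The hepatocyte markers, from the tissue where these genes are best known, summed to 0.85, 1.15 and 1.01 FPKM in the libraries labelled wild type and to 1.13, 2.45 and 2.61 in those labelled cKO. The epididymis markers were lower together with *Serpina1c* and *Serpina1d*, at 4.41, 2.76 and 3.61 FPKM in sum against 0.21, 0.45 and 0.32, nearly all of it from *Rnase10*, the only one tested, which reached the level for testing only in the libraries labelled wild type and was called lower (adjusted p = 0.000227 by edgeR). Their part in these values was not tested.

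In clade B, 5 of 8 tested members rose and 2 fell, beside 40.9% and 40.6% of all genes tested. Of these, *Serpinb1b* and *Serpinb8* were tested only because of their level in the libraries labelled cKO. *Serpinb6c* and *Serpinb9h* were tested only because of that in the libraries labelled wild type. The direction of FPKM was thus fixed for 4 of the 7 genes called. *Serpinb1a* rose from 3.46, 4.98 and 5.16 FPKM to 157, 142 and 116, a fold change of 16.8 (log2 fold change 4.07 ± 0.24 SE, adjusted p = 4.0e-05 by edgeR). *Serpinb9* rose from 2.55, 2.02 and 2.84 to 23.6, 23.9 and 19.0 FPKM (log2 fold change 2.31 ± 0.21 SE), and *Serpinb6b* from 0.76, 1.61 and 1.51 to 20.4, 22.3 and 24.6 (log2 fold change 3.26 ± 0.31 SE). These libraries labelled cKO lay within a narrow range of each other. *Serpinb8* rose from 0.17, 0.13 and 0.13 FPKM to 3.03, 3.68 and 3.01 (log2 fold change 4.03 ± 0.38 SE), and *Serpinb1b* from 0, 0 and 0.20 to 3.79, 5.62 and 2.03 (log2 fold change 5.18 ± 1.004 SE, adjusted p = 0.00329 by edgeR). *Serpinb6c* went the other way, from 2.48, 1.88 and 2.86 FPKM to 0, 0 and 0.21 (log2 fold change -5.64 ± 0.88 SE, adjusted p = 0.00124 by edgeR), as did *Serpinb9h*, at 0.53 to 1.42 against 0 to 0.08 FPKM (log2 fold change -4.77 ± 0.74 SE, adjusted p = 0.00127 by edgeR). The values of these low members depended on single libraries. Without replicate 3 labelled wild type, the only one of its group above 0, the log2 fold change of *Serpinb1b* was 9.22, and without replicate 3 labelled cKO, likewise, that of *Serpinb6c* was -8.73. Without replicate 1 labelled cKO that of *Serpinb6c* was -5.0 and that of *Serpinb9h* -4.12. Among granzymes and other granule proteases, 3 of 5 tested rose and 1 fell, beside 40.9% and 40.6% of all genes tested. Those that rose were the mast cell proteases *Cma1*, *Mcpt4* and *Tpsb2*. These genes were tested only because of their level in the libraries labelled cKO and had to rise in FPKM. They were at 0.33 FPKM or less in the libraries labelled wild type and highest in replicate 1 labelled cKO, at 20.03, 24.4 and 30.6 FPKM. The one that fell was *Gzmn*, at 75.8, 61.1 and 52.6 FPKM against 0, 0.7 and 1.19. All 13 tested cathepsin genes rose, beside 40.9% of all genes tested, with *Ctss* going from 5.75, 5.28 and 5.34 to 205, 199 and 156 FPKM. Of the 13, *Ctse* and *Ctsw* reached the level for testing only in the libraries labelled cKO and had to rise in FPKM.

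*Serpinb6a* was the most abundant serpin of the libraries labelled wild type, where it made up between 47.5% and 49.5% of the serpin FPKM. It was at 160.1, 151 and 149 FPKM there and at 299, 243 and 226 in the libraries labelled cKO. On the TMM scale it was not called and the groups overlapped (log2 fold change -0.17 ± 0.19 SE, adjusted p = 0.441 by edgeR), while under total-count scaling it was called higher (log2 fold change 0.68, adjusted p = 0.00773), so its direction follows the scaling. Its FPKM ratio of 1.67 was smaller than that of any member called higher, and by mean FPKM *Serping1*, *Serpina5*, *Serpina3a*, *Serpina3n* and *Serpinf1* stood above it in the libraries labelled cKO.

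*Serpine3* was the only tested member at 0 in a whole group, going from 1.74, 2.32 and 2.27 FPKM to 0 in all 3 libraries labelled cKO (adjusted p = 0.000353 by edgeR), and it was tested only because of its level in the libraries labelled wild type. Set against a floor of 3 counts per library it was at least 23.6-fold lower. The 28 members not tested in adult testis reached 0.97 FPKM at most, in *Serpina3m*, and 12 of them had fewer than 10 counts over the 6 libraries. *Serpini2* did not exceed 0.26 FPKM, *Serpinb5* 0.06 and *Serpinc1* 0.32.

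**Figure D4:**
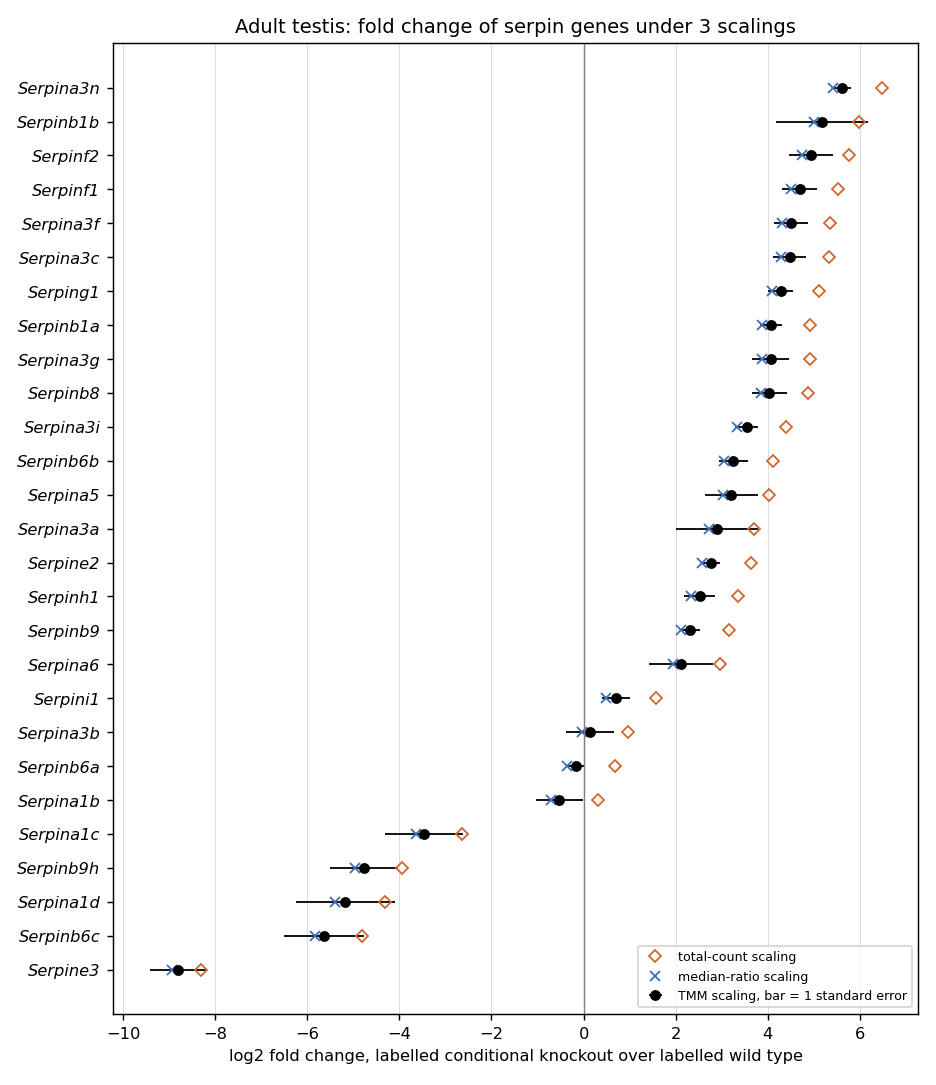
log2 fold change of 27 serpin genes tested in adult testis, labelled conditional knockout over labelled wild type. Black points with bars of 1 standard error are on the TMM scale, and the open diamonds of total-count scaling lie to their right and the crosses of median-ratio scaling to their left, so that Serpina3b, Serpinb6a and Serpina1b change side.

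Members tested in both tables mostly lay on the same side of 0, with Sertoli cells in the day 7 table and whole testis in the adult one. Several marker lists did so too. At day 7 and in adult testis, 6 of 6 and 6 of 6 fibroblast markers tested were above 0. For macrophages it was 4 of 4 and 8 of 8, for Leydig cells 4 of 4 and 6 of 6, and for myoid cells 7 of 7 and 6 of 7. Sertoli cell markers differed, at 3 of 15 and 13 of 14. The part of these markers in the shared signs was not tested. Of the 18 members tested in both, the log2 fold change was above 0 in both tables for 16 (88.9%), below 0 in both for 1 (*Serpinb6a*) and of opposite sign for 1 (*Serpine2*). Over the 12378 genes tested in both, 30.5% were above 0 in both. The sign was the same in both tables for 94.4% of the 18 members and for 54.7% of these genes. The tables share no sample. At day 7 no member passed edgeR's test, so the day 7 signs are fold changes and not calls. Under total-count scaling *Serpinb6a* was below 0 at day 7 (log2 fold change -0.22) but above 0 in adult testis (0.68). The day 7 signs of *Serpine2*, *Serpina3i*, *Serpinb6b* and *Serpinb9* turned with a sample left out. *Serpina3n*, *Serpina3g* and *Serping1* had log2 fold changes of 1.93, 2.02 and 1.41 at day 7 and of 5.62, 4.06 and 4.28 in adult testis. *Serpinh1*, which led the day 7 cells at 880.3 FPKM or more in each sample, was at 42.9 FPKM at most in adult testis, and *Serpina3a* and *Serpina3c*, at 144 FPKM or more in each adult library labelled cKO, were at 1.73 and 0.93 FPKM at most in the day 7 cells. The tables were normalized separately, so these levels are set side by side without a test.

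**Figure D5:**
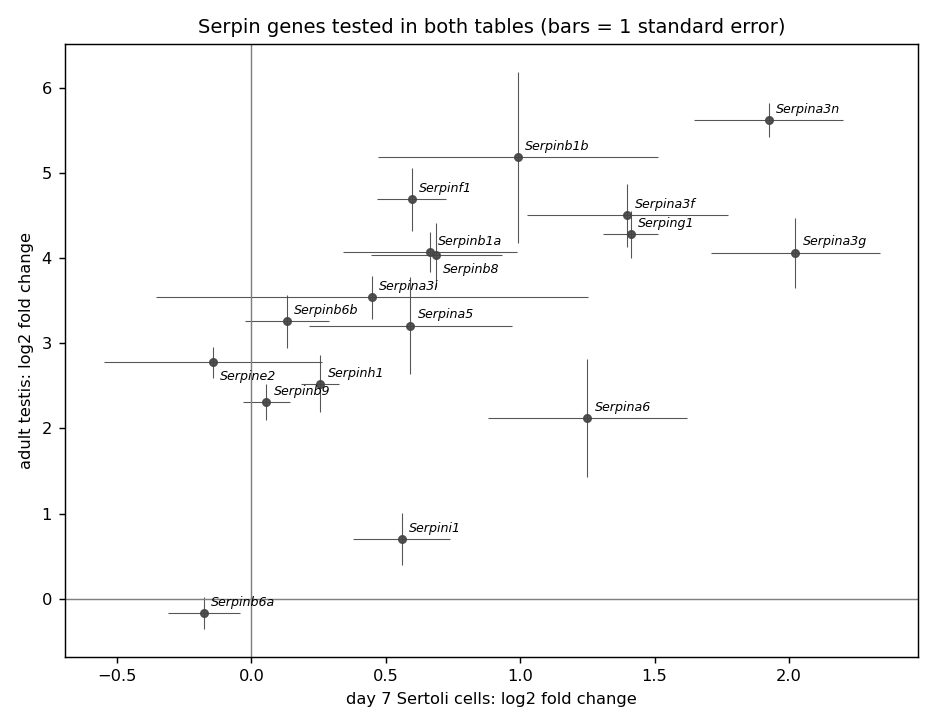
log2 fold change of 17 serpin genes tested in both tables, day 7 Sertoli cells on the horizontal axis and adult testis on the vertical axis, with bars of 1 standard error. Serpina3n and Serpina3g lie farthest to the right, Serpinb6a lies below 0 on both axes and Serpine2 lies to the left of 0 at day 7 and above 0 in adult testis.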

How the data were processed

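Reads of 10 libraries were processed by the study's authors with HISAT on the GRCm38.p6 genome, Bowtie2 on the reference genes and RSEM for quantification. Tool versions, read filters and strand handling are not given in the sources used here. The deposited tables give estimated counts, which are not normalized, FPKM, which the authors scaled for length and depth, and TPM, which the authors scaled to a fixed sum and which entered no test. The adult table also has 20 further columns without values, so that, apart from TPM, 0 unused per-sample columns hold values. Samples were grouped by their titles.

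Counts were rounded and tested with the quasi-likelihood test of edgeR 4.0.16 (R 4.3.3), with TMM scaling and Benjamini-Hochberg adjustment over the genes tested in each table, 12880 at day 7 and 15919 in adult testis. The test was restricted to genes with 0.5 FPKM or more in 2 samples at day 7 and in 3 in adult testis. The SE is the log2 fold change over the root of the test statistic. Alternatives were DESeq2 1.42.0, limma 3.58.1 on log2(FPKM + 0.1) and log2(FPKM + 1), which understates changes of low genes, other scalings and filters, the study's thresholds, a replicate block and each sample left out. The scripts were tested on simulated data. At these depths the spread between 2 or 3 samples limits precision, and p-values cover that spread only. TMM factors were 0.984 to 1.02 at day 7, and in adult testis 0.710 to 0.761 in the libraries labelled wild type and 1.27 to 1.42 in those labelled cKO.

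The members and the lists were chosen with earlier results of these data known. Values in every sample are given for members that were called, that averaged 5 FPKM or more, or that stood on a fixed list of well known serpins, and in adult testis for the 25 most abundant of these. *Serpina3b*, *Serpina3m*, *Serpina11*, *Serpina3f* at day 7 and the members that were named with ranges fall outside that rule. Gene positions and promoters are from RefSeq (GRCm38.p6), and shared 50-base words from GENCODE transcripts. Some results on single genes are not reported here, in the text or the figures, and the counts over the members include them.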

Additional observations from a re-analysis of the deposited data

How the results depend on the processing

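At day 7 the count of 0 called serpin genes held under median-ratio and total-count scaling, both limma fits, both other filters, the replicate block and the study's thresholds. DESeq2 called 4 (*Serping1*, *Serpinf1*, *Serpina3g* and *Serpina3n*), and leaving out each sample in turn gave 0 to 18 calls, 9 without *Amh-Rnf20*-/- replicate 1 (beside 21.4% of all genes tested) and 18 without replicate 2 (beside 39.9%). The cause was not tested. In adult testis the 18 higher calls (beside 40.9% of all genes tested) ranged from 14 to 21 over the alternatives, and from 16 to 19 with a sample left out. The study's thresholds gave the 14, beside 23% of all genes tested, and total-count scaling gave 21, beside 54.1%. The 5 lower calls (beside 40.6%) stayed at 5 with any sample left out. They were 1 with the study's thresholds, beside 23.7%, and 14 without a filter on low values, which tests more genes. For the fits without a filter and with a replicate block, the share of all genes called is not given here, so their counts stand without it. With a sample left out, log2 fold changes at day 7 ranged from -1.27 (without *Amh-Rnf20*-/- replicate 2) to 1.21 (without replicate 1) for *Serpina3i*, from -0.58 (without *Amh-Rnf20*-/- replicate 1) to 2.18 (without replicate 2) for *Serpinb2*, from -0.082 to 0.32 for *Serpinb6b*, from -0.0031 to 0.11 for *Serpinb9* and from -0.81 to 0.31 for *Serpine2*, the sign turning without *Amh-Rnf20*-/- replicate 1 for *Serpinb6b* and *Serpinb9* and without control replicate 1 (0.11) or *Amh-Rnf20*-/- replicate 2 for *Serpine2*. *Serpinb9* was also below 0 with limma (-0.0068 and -0.0066 at pseudocounts of 0.1 and 1). In adult testis *Serpina1b* was above 0 with total-count scaling (0.32) and limma (0.31 and 0.18), as was *Serpinb6a* (0.68, 0.73 and 0.73), which ranged from -0.198 to 0.022 with a sample left out, above 0 without replicate 3 labelled cKO. Samples with the same replicate number did not deviate together (correlations of 0.036 at day 7 and 0.011, 0.012 and 0.025 in adult testis), so the numbers do not pair them. With the replicate number as a block, 0 members were called at day 7, and 16 higher and 5 lower in adult testis, without *Serpina3a* and *Serpina6*. The limits are 2 and 3 samples per group, and isolated cells at day 7 beside whole testis in the adult table. Cell type markers differed between the groups in both tables. Other limits are members with few counts and *Serpina1* copies that share sequence.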
